A study of Homo sapiens with 12 samples.

Results

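The cystine uptake and glutathione genes are 10 genes chosen by function, each measured with every probe set that the array holds for it. They include the cystine antiporter subunits SLC7A11 and SLC3A2, the transsulfuration enzymes CTH and CBS, and the glutathione synthesis genes GCLC, GCLM and GSS. The others are GPX4, which uses glutathione, GSR, which regenerates it, and CHAC1, which degrades it. All 10 were found, on 15 of 19064 probe sets that match a single gene and among 11963 genes. The cells were RCC4, an established clear cell renal carcinoma line, on 12 Affymetrix 3′ expression arrays. The siTAZ erastin group received siRNA that targets WWTR1, which encodes TAZ, a transcriptional coactivator of the Hippo pathway, for 2 days and then 1 µM erastin for 7 hours. The siNT erastin group received non-targeting siRNA and the same erastin, the siTAZ vehicle group the WWTR1 siRNA and DMSO, and the siNT vehicle group non-targeting siRNA and DMSO. Each of these 4 groups held 3 arrays, which the submitters call biological triplicates. Every array thus comes from a single line in culture, and the labels do not give the number or sequence of the siRNAs.

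Cells import cystine in exchange for glutamate through system xc-, in which SLC7A11 carries the substrate and SLC3A2 is the heavy chain that brings it to the membrane. Inside the cell cystine is reduced to cysteine, which can also be made from methionine through transsulfuration by CBS and then CTH. Cysteine limits the synthesis of glutathione, and the lipid peroxidase GPX4 uses glutathione to hold back ferroptosis, an iron-dependent cell death. Erastin blocks system xc-. SLC7A11, CTH and CHAC1 are known targets of the amino acid stress factor ATF4, and SLC7A11, GCLC, GCLM and GSR of the antioxidant factor NRF2.

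WWTR1 was low on all siTAZ arrays, with a log2 signal of 9.25 ± 0.14 on siTAZ arrays and 12.28 ± 0.06 on siNT arrays (SD, n = 6 each), 12.2% of the control signal (two-sided exact permutation test, p = 0.0022, the smallest that 6 against 6 arrays can give). All 10 measured renal and clear cell carcinoma markers were above the dim level defined here; PAX8 averaged 10.61. Their mean signal was 10.14 to 10.24 on siTAZ arrays and 10.32 to 10.40 on siNT arrays. The leukocyte marker PTPRC (3.77) and the endothelial markers CDH5 (3.29) and KDR (3.76) were dim. The mean of each list of 5 leukocyte, 6 endothelial and 3 erythroid markers stayed between 4.14 and 5.34 on all arrays. A signal is called dim here where its mean over the 12 arrays was below 5.11, the 75th percentile of these markers. Most of them are thus dim by definition. The 4 above that level were CD3E (5.52), CD79A (5.16), TEK (5.94) and HBB (6.43). Within a group, arrays correlated at 0.9962 to 0.9987 across genes. The difference between the 3′ and 5′ actin control probe sets, which reads RNA integrity, was 3.25 ± 0.33 on siTAZ erastin, 2.26 ± 0.69 on siNT erastin, 2.65 ± 0.04 on siTAZ vehicle and 2.68 ± 0.28 on siNT vehicle arrays (SD, n = 3), lowest at 1.49 on siNT erastin replicate 3. The same difference for GAPDH was 0.20 ± 0.06, 0.15 ± 0.08, 0.20 ± 0.07 and 0.18 ± 0.07 in the same order. Every siTAZ erastin array lay above every siNT erastin array on actin, whereas on GAPDH these groups overlapped. As a covariate, the actin difference therefore cannot be fully separated from silencing under erastin. Calls lost or gained with it there cannot be assigned to RNA integrity. In these bulk samples fewer cells with a transcript and less of it per cell cannot be told apart.

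The subsets of members that answered erastin and WWTR1 silencing overlapped but were not the same. With erastin, SLC7A11, CTH and CHAC1 rose in both siTAZ and siNT cells, whereas no probe set of GCLC, GCLM, GSS, GSR or GPX4 passed the test. With silencing, GCLM, GSR, CTH and CHAC1 fell and GPX4 rose in both media, and SLC7A11 was lower in vehicle and higher under erastin. Rose, fell and called are used of genes with a limma p under 0.05 after Benjamini-Hochberg adjustment over all genes, and a gene's value is that of its brightest probe set. Errors of log2 fold changes are standard errors of this fit, with n = 3 arrays per group, and signals are log2 RMA values.

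With erastin 4 of 10 members rose in siTAZ cells and 0 fell, where 0.46% of all genes rose, 0.1% fell and 0.56% were called in all. In siNT cells 4 of 10 rose and 0 fell, where 0.527% of all genes rose, 0.276% fell and 0.802% were called. On the arrays of siTAZ cells 6 members lay wholly higher and 1 wholly lower with erastin than with vehicle, and in siNT cells 4 lay wholly higher, where 20.7% and 14.4% of all genes did not overlap in one or the other direction.

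With silencing 3 of 10 members rose and 4 fell under erastin, where 15.6% of all genes rose, 12.6% fell and 28.2% were called. In vehicle 1 of 10 rose and 5 fell, where 14.7% of all genes rose, 13.9% fell and 28.6% were called. Under erastin 4 members lay wholly above and 4 wholly below the siNT arrays, and in vehicle 1 above and 5 below, where 38.8% and 43.8% of all genes did not overlap. The members' counts with silencing stand against this large background. Of the 15 probe sets of the members, silencing raised 3 and lowered 5 under erastin and raised 1 and lowered 7 in vehicle, where 24.6% and 24.3% of all probe sets were called. Erastin raised 5 of the 15 in siTAZ and 6 in siNT cells and lowered 0, where 0.294% and 0.372% were called.

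The median log2 fold change over the 10 members was 0.24 for erastin in siTAZ cells and 0.14 in siNT cells, where the median over all genes was 0.01 and −0.00. For silencing it was −0.06 under erastin and −0.17 in vehicle, where it was 0.01 and −0.01 over all genes. Each group of arrays enters several of these comparisons, so their values are given side by side.

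**Figure D1:**
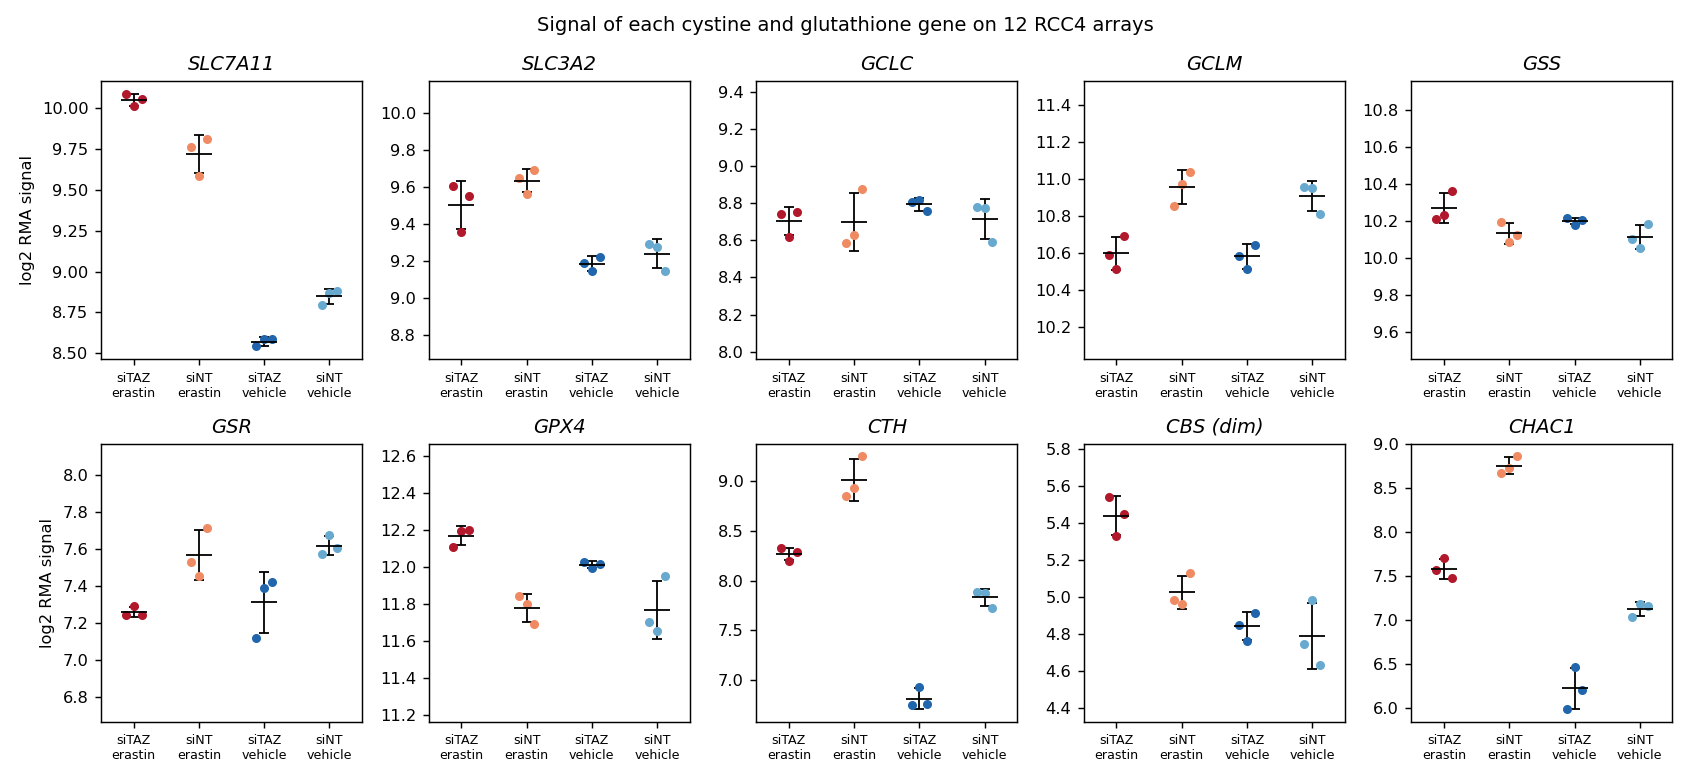
Log2 RMA signal (vertical axes, with a different range for each gene and not starting at 0) of the brightest probe set of each of the 10 genes, by group on the horizontal axis; points are arrays, long ticks means and bars 1 SD (n = 3). SLC7A11, CTH and CHAC1 are higher on erastin than on vehicle arrays, GCLM and GSR are lower on siTAZ than on siNT arrays, and GCLC overlaps across groups except between siTAZ erastin and siTAZ vehicle.

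SLC7A11, the transport subunit of system xc-, had log2 signals of 10.09, 10.01 and 10.05 on siTAZ erastin arrays and 9.76, 9.59 and 9.81 on siNT erastin arrays. On siTAZ vehicle arrays it had 8.54, 8.59 and 8.58, and on siNT vehicle arrays 8.79, 8.87 and 8.88. No 2 of the 4 groups overlapped, and the order from high to low was siTAZ erastin, siNT erastin, siNT vehicle, siTAZ vehicle. With erastin SLC7A11 rose by 1.48 ± 0.06 or 2.79-fold in siTAZ cells (limma adjusted p = 7.2e-08) and by 0.87 ± 0.06 or 1.83-fold in siNT cells (adjusted p = 1.93e-05). By size these were rank 3 and rank 5 from the top of 11963 genes. With silencing it rose by 0.33 ± 0.06 under erastin (adjusted p = 0.00136) and fell by 0.28 ± 0.06 in vehicle (adjusted p = 0.00443). By size these were rank 1084 from the top and rank 1145 from the bottom.

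The other probe sets of SLC7A11 bear differently on these changes. The second brightest had 9.05, 9.05 and 9.03 on siTAZ erastin arrays and 8.77, 8.70 and 9.05 on siNT erastin arrays, and siNT erastin replicate 3, at 9.053, lay just above all 3 siTAZ erastin arrays. On siTAZ vehicle arrays it had 7.45, 7.69 and 7.60, all below the 8.04, 8.14 and 7.76 on siNT vehicle arrays. With erastin it rose by 1.46 ± 0.11 in siTAZ and by 0.86 ± 0.11 in siNT cells (limma over all probe sets, adjusted p = 2e-05 and 0.00377), close to the brightest probe set. With silencing in vehicle it fell by 0.40 ± 0.11 (adjusted p = 0.0174), and under erastin its change of 0.20 ± 0.11 did not pass the test (adjusted p = 0.23). The third was near the dim level with a mean of 5.37, and none of its changes passed the test. It was higher on all erastin than on all vehicle arrays of the same siRNA (0.36 ± 0.13 in siTAZ and 0.47 ± 0.13 in siNT cells), and for silencing under erastin it gave −0.21 ± 0.13. With the mean of the 3 probe sets, the rise of SLC7A11 with silencing under erastin was 0.11 and not called (adjusted p = 0.378). The rise with erastin thus appeared on both brighter probe sets, and the higher signal in silenced cells under erastin passed the test on the brightest alone.

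**Figure D2:**
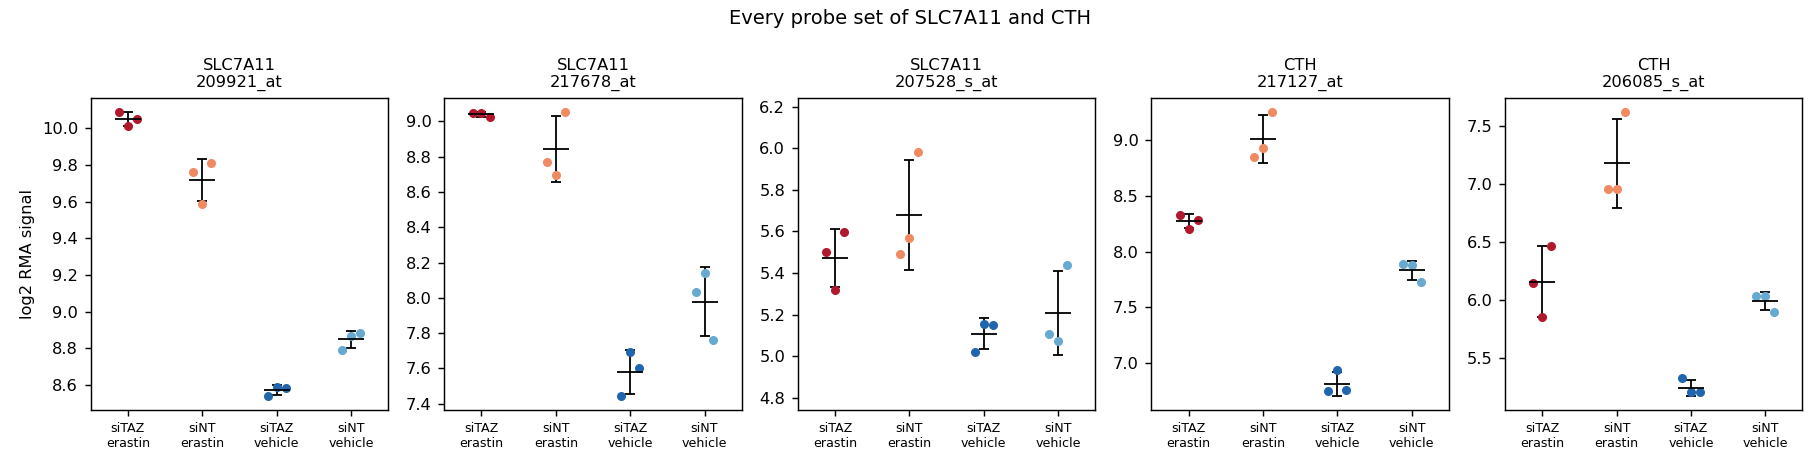
Log2 RMA signal (vertical axes, with different ranges and not starting at 0) of the 3 probe sets of SLC7A11 and the 2 of CTH by group; points are arrays, long ticks means and bars 1 SD (n = 3). The brighter 2 SLC7A11 probe sets have their highest group mean on siTAZ erastin arrays, though 1 siNT erastin array of the second lies just above these, and both CTH probe sets are highest on siNT erastin arrays.

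The difference between the erastin responses of SLC7A11 in siTAZ and siNT cells was 0.61 ± 0.09 (95% interval 0.42 to 0.80), the sixth largest of all genes from the top. Its limma p was 1.46e-05 before and 0.0583 after adjustment over all genes, so it did not pass. It passed under 4 alternatives, which were median centring (adjusted p = 0.0376), a second quantile normalisation (0.0158), leaving out genes below the 25th percentile of signal (0.0297) and the trend and robust setting (0.00187). It ranged from 0.37 to 0.66 over 8 alternatives, 0.37 being the mean of all probe sets, and from 0.54 to 0.65 over 12 fits that each left out 1 array. Its limma adjusted p ran from 0.00187 to 0.806 over the alternatives, with 0.259 for the actin 3′ minus 5′ difference as a covariate. With 1 array left out it ran from 0.0507 to 0.29 and never passed. The brighter of the other probe sets gave 0.60 ± 0.15 and the dimmer −0.11 ± 0.18. In limma 0 of 11963 genes were called for this difference, 764 had an unadjusted p under 0.05, and among the members these were SLC7A11 and CBS.

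SLC3A2, the heavy chain that SLC7A11 shares with other amino acid transporters, moved less. It had 9.60, 9.36 and 9.55 on siTAZ erastin and 9.65, 9.56 and 9.69 on siNT erastin arrays. On siTAZ vehicle arrays it had 9.19, 9.14 and 9.22, and on siNT vehicle arrays 9.29, 9.28 and 9.15. All erastin arrays lay above all vehicle arrays, and within each medium siTAZ and siNT arrays overlapped. With erastin it was 0.32 ± 0.07 higher in siTAZ cells (limma adjusted p = 0.0944) and rose by 0.40 ± 0.07 in siNT cells (adjusted p = 0.0262). The 2 responses differed by −0.08 ± 0.10 (95% interval −0.29 to 0.14, adjusted p = 0.887). The call in siNT cells did not hold without siNT erastin replicate 1 or 3 or without any one siNT vehicle array (0.35 to 0.42, adjusted p = 0.0764 to 0.0942), and with only the siNT groups in the fit (adjusted p = 0.16). SLC3A2 was called in siTAZ cells under a second quantile normalisation (0.34, adjusted p = 0.0350), with trend and robust variances (0.32, adjusted p = 0.0101) and without siTAZ erastin replicate 2 (0.39, adjusted p = 0.0357). Silencing gave −0.13 ± 0.07 under erastin and −0.05 ± 0.07 in vehicle, neither called.

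Promoter sequence was available from the RefSeq table of build GRCh38.p14 for 7 members in 13 windows, each from 250 bases before to 50 after a start site. They were searched on both strands for TGATGNAA, the core of the amino acid response element bound by ATF4, for TGACNNNGC, the core of the antioxidant response element bound by NRF2, and for CATTCC, the core bound by the TEAD partners of TAZ. The first was in 3.62% of all 35116 windows, the second in 13.3% and the third in 14%. The windows printed in this report are those of the 3 non-dim members that had a match, with the matching letters in capitals. A window of CBS, which was dim, held the reverse complement of an antioxidant core at 83 to 75 bases before the start. No match was found in the windows of GCLC, GPX4 and CTH. One of 3 SLC3A2 windows, chr11:62881449-62881748 on the plus strand, held TGACTCAGC at 37 to 29 bases before the start and the reverse complement of TGATGTAA at bases 38 to 45 after it.
SLC3A2: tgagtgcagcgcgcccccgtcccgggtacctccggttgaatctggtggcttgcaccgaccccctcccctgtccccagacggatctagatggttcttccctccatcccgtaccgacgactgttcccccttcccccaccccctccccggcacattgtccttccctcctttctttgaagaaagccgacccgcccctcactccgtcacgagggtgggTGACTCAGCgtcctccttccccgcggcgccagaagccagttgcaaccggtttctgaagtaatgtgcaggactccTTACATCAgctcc

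CTH, which releases cysteine from cystathionine, had the largest change of the transsulfuration genes. Its brighter probe set had 8.33, 8.20 and 8.28 on siTAZ erastin and 8.85, 8.93 and 9.25 on siNT erastin arrays. On siTAZ vehicle arrays it had 6.75, 6.94 and 6.76, and on siNT vehicle arrays 7.89, 7.88 and 7.73. None of the 4 groups overlapped, with siNT erastin highest, then siTAZ erastin, siNT vehicle and siTAZ vehicle. With erastin CTH rose by 1.46 ± 0.10 or 2.74-fold in siTAZ cells (limma adjusted p = 6.19e-06) and by 1.18 ± 0.10 or 2.26-fold in siNT cells (adjusted p = 6.63e-05), rank 4 from the top in each. With silencing it fell by 0.74 ± 0.10 under erastin (adjusted p = 0.000108) and by 1.02 ± 0.10 in vehicle (adjusted p = 8.29e-06). With the actin 3′ minus 5′ difference as a covariate the value under erastin was −0.46 and still called (adjusted p = 0.00237). Silenced cells given erastin still had 0.44 ± 0.10 more than control cells without it (adjusted p = 0.00405).

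The dimmer CTH probe set had 6.15, 5.85 and 6.47 on siTAZ erastin and 6.96, 6.95 and 7.62 on siNT erastin arrays. Its values were 5.32, 5.20 and 5.20 on siTAZ vehicle and 6.03, 6.03 and 5.90 on siNT vehicle arrays. Its falls with silencing were 1.02 ± 0.17 under erastin and 0.74 ± 0.17 in vehicle, and its rise with erastin was 1.19 ± 0.17 in siNT cells (limma over all probe sets, adjusted p = 0.000858, 0.00666 and 0.0107). In siTAZ cells its 0.91 ± 0.17 did not pass (adjusted p = 0.0577). The difference between the responses was 0.28 ± 0.14 on the brighter and −0.28 ± 0.24 on the dimmer probe set, so the 2 disagreed in sign and neither was called. On this probe set siTAZ erastin and siNT vehicle arrays overlapped, and with the mean of both probe sets the call of that comparison was lost (0.30, adjusted p = 0.0925).

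CBS, which makes cystathionine from homocysteine and serine, was dim, with a mean of 5.02 over all arrays, and its single probe set cannot tell it from the near-identical annotated copy CBSL. It had 5.54, 5.33 and 5.45 on siTAZ erastin and 4.99, 4.96 and 5.13 on siNT erastin arrays. It had 4.85, 4.76 and 4.92 on siTAZ vehicle and 4.75, 4.99 and 4.64 on siNT vehicle arrays, where the groups overlapped. All siTAZ erastin arrays lay above the other 9. Erastin raised it by 0.60 ± 0.09 in siTAZ cells (limma adjusted p = 0.00994), and gave 0.24 ± 0.09 in siNT cells, which did not pass (adjusted p = 0.358). The difference of 0.36 ± 0.13 between these responses had an adjusted p of 0.77 (0.0158 before adjustment). Silencing raised it by 0.41 ± 0.09 under erastin (adjusted p = 0.00421), and gave 0.05 ± 0.09 in vehicle. The erastin call in siTAZ cells was lost without siTAZ vehicle replicate 1 or 2 or siTAZ erastin replicate 1 or 3 (0.55 to 0.60, adjusted p = 0.0547 to 0.0613).

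Of the genes that build glutathione, only GCLM was called in any of these comparisons. GCLM, the modifier subunit of glutamate-cysteine ligase, had 10.59, 10.52 and 10.69 on siTAZ erastin and 10.86, 10.97 and 11.04 on siNT erastin arrays. It had 10.59, 10.52 and 10.65 on siTAZ vehicle and 10.96, 10.95 and 10.81 on siNT vehicle arrays. All 6 siTAZ arrays lay below all 6 siNT arrays, and erastin and vehicle arrays of the same siRNA overlapped. Silencing lowered it by 0.36 ± 0.07 under erastin and by 0.33 ± 0.07 in vehicle (limma adjusted p = 0.00191 and 0.00344), that is 1.28-fold and 1.25-fold. With the actin 3′ minus 5′ difference as a covariate the fall under erastin was 0.21 and not called (adjusted p = 0.0886). Erastin gave 0.02 ± 0.07 in siTAZ cells (95% interval −0.13 to 0.17) and 0.05 ± 0.07 in siNT cells (−0.10 to 0.20), neither called.

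The GCLM window, chr1:93909381-93909680 on the minus strand, held GCTTAGTCA, the reverse complement of an antioxidant response element core, at 34 to 26 bases before the start. It held neither of the other 2 motifs.
GCLM: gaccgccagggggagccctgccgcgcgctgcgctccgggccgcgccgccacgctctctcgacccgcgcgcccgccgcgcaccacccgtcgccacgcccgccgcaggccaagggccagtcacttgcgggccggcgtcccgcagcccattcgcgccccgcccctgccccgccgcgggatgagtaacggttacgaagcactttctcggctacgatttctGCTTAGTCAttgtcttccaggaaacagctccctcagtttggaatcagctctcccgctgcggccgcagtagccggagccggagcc

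GCLC, the catalytic subunit of the same ligase, ranged from 8.59 to 8.88 over the 12 arrays on its brighter and from 8.19 to 8.70 on its dimmer probe set. On the brighter, silencing gave 0.01 ± 0.08 under erastin (95% interval −0.17 to 0.18) and 0.08 ± 0.08 in vehicle (−0.10 to 0.26), and erastin gave −0.09 ± 0.08 in siTAZ cells (−0.27 to 0.09) and −0.02 ± 0.08 in siNT cells (−0.19 to 0.16). None of these was called in limma. With the actin 3′ minus 5′ difference as a covariate the value for silencing under erastin was 0.24 and called (adjusted p = 0.0237). On the dimmer probe set all siTAZ vehicle arrays lay above all siNT vehicle arrays, by 0.25 ± 0.09 (limma over all probe sets, adjusted p = 0.0766). The 2 subunits thus differed in their calls with silencing, and the difference between them was not tested.

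GSS, glutathione synthetase, ranged from 10.05 to 10.36 on its brighter and from 8.71 to 8.85 on its other probe set. Silencing gave 0.13 ± 0.06 under erastin (95% interval 0.01 to 0.26, limma adjusted p = 0.113) and 0.09 ± 0.06 in vehicle (−0.04 to 0.21, adjusted p = 0.328). On the brighter probe set the siTAZ arrays lay above the siNT arrays under erastin and overlapped them in vehicle. On the other probe set they lay above them in each medium, by 0.04 ± 0.05 and 0.06 ± 0.05. Erastin gave 0.07 ± 0.06 in siTAZ cells (95% interval −0.06 to 0.20) and 0.02 ± 0.06 in siNT cells (−0.11 to 0.15), neither called.

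GPX4 and GSR, of which the first uses glutathione and the second regenerates it, moved in opposite directions with silencing. GPX4, the lipid hydroperoxide-reducing peroxidase, had 12.11, 12.20 and 12.20 on siTAZ erastin and 11.84, 11.80 and 11.70 on siNT erastin arrays. On siTAZ vehicle arrays it had 12.029, 11.995 and 12.016, and on siNT vehicle arrays 11.70, 11.66 and 11.95. All siTAZ arrays lay above all siNT arrays, with siNT vehicle replicate 3 closest to them. Silencing raised GPX4 by 0.39 ± 0.07 or 1.31-fold under erastin (limma adjusted p = 0.00174) and by 0.24 ± 0.07 or 1.18-fold in vehicle (adjusted p = 0.0271). In vehicle the call did not hold with only the 2 compared groups in the fit (0.24, limma adjusted p = 0.0516). It was also lost without siTAZ vehicle replicate 1, 2 or 3 or siNT vehicle replicate 1 or 2 (0.19 to 0.25, adjusted p = 0.0574 to 0.116). Under erastin it was lost with the actin covariate (0.24, adjusted p = 0.0829), whose values also separate the siTAZ and siNT arrays there. Erastin gave 0.16 ± 0.07 in siTAZ cells (95% interval −0.01 to 0.32) and 0.01 ± 0.07 in siNT cells (−0.15 to 0.17), neither called.

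GSR, the reductase that regenerates glutathione from its oxidised form, had 7.24, 7.29 and 7.24 on siTAZ erastin and 7.53, 7.45 and 7.71 on siNT erastin arrays. It had 7.12, 7.39 and 7.42 on siTAZ vehicle and 7.58, 7.67 and 7.60 on siNT vehicle arrays. All siTAZ arrays lay below all siNT arrays. Silencing lowered it by 0.31 ± 0.08 or 1.24-fold in each medium (limma adjusted p = 0.0168 under erastin and 0.0162 in vehicle). The call under erastin did not hold without siTAZ erastin replicate 1, at −0.30 (adjusted p = 0.0513), without siNT erastin replicate 3, at −0.23 (adjusted p = 0.0612), or with the actin covariate (−0.22, adjusted p = 0.229). In vehicle it did not hold without siTAZ vehicle replicate 1, at −0.21 (adjusted p = 0.0673), and without siNT vehicle replicate 2, at −0.28 (adjusted p = 0.0608). Erastin gave −0.05 ± 0.08 in both siTAZ and siNT cells (95% interval −0.24 to 0.13 in each).

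CHAC1, a cytosolic enzyme that cleaves glutathione, had the widest span of any member. It had 7.57, 7.70 and 7.48 on siTAZ erastin and 8.68, 8.73 and 8.86 on siNT erastin arrays. It had 5.99, 6.47 and 6.21 on siTAZ vehicle and 7.03, 7.18 and 7.16 on siNT vehicle arrays. The groups did not overlap and had the same order as those of CTH. With erastin CHAC1 rose by 1.36 ± 0.11 or 2.57-fold in siTAZ cells and by 1.63 ± 0.11 or 3.10-fold in siNT cells (limma adjusted p = 2.86e-05 and 1.02e-05), rank 6 and rank 1 from the top of all genes. With silencing it fell by 1.17 ± 0.11 under erastin (adjusted p = 5.51e-06), rank 35 from the bottom, and by 0.90 ± 0.11 in vehicle (adjusted p = 4.29e-05). The difference between the erastin responses was −0.27 ± 0.15 (95% interval −0.60 to 0.05, adjusted p = 0.776). All 4 calls held over the 9 alternatives and with any 1 array left out.

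The CHAC1 window, chr15:40953221-40953520 on the plus strand, held TTGCATCA, the reverse complement of an amino acid response element core, at 209 to 202 bases before the start. Neither of the other motifs was in the window, and the window of CTH, whose order of groups was the same, held none of the 3.
CHAC1: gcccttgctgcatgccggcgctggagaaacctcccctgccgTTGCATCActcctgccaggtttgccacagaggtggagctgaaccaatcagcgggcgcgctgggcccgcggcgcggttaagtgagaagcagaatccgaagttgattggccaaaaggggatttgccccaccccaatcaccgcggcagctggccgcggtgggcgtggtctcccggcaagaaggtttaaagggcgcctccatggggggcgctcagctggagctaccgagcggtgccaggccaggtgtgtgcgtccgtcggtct

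**Figure D3:**
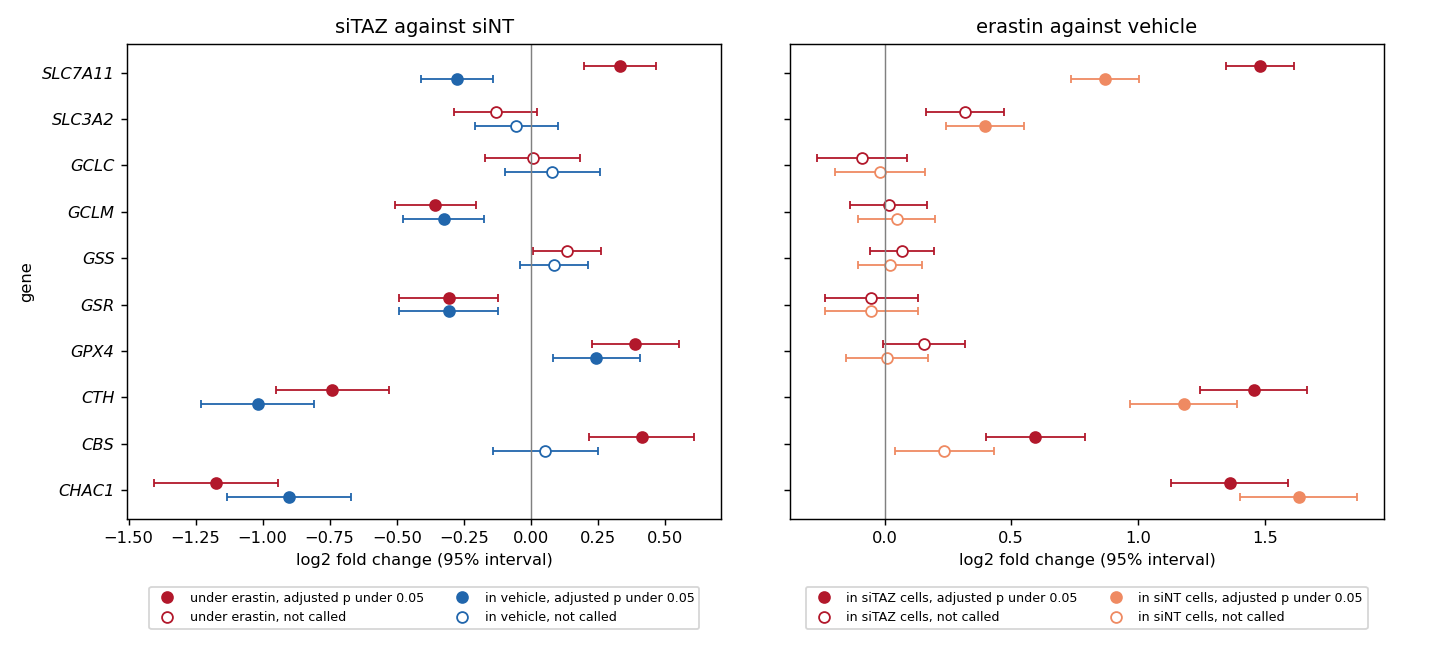
Log2 fold change (horizontal axes) of the 10 genes for siTAZ against siNT (left, under erastin and in vehicle) and for erastin against vehicle (right, in siTAZ and in siNT cells); bars are 95% intervals of the limma fit and filled points have an adjusted p under 0.05. SLC7A11 lies on both sides of 0 for siTAZ, at 0.33 under erastin and −0.28 in vehicle, while CTH and CHAC1 lie below 0 in both.

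Compared with siNT vehicle cells, siTAZ erastin cells had 6 members higher and 2 lower, where 15.8% of all genes rose, 14.4% fell and 30.2% were called in limma. On the arrays 7 members lay wholly higher and 2 wholly lower, where 43.6% of all genes did not overlap, and of the 15 probe sets 7 rose and 2 fell, where 26.2% of all were called. SLC7A11 was higher by 1.20 ± 0.06 or 2.30-fold, CBS by 0.65 ± 0.09, CHAC1 by 0.46 ± 0.11, CTH by 0.44 ± 0.10, GPX4 by 0.40 ± 0.07 and SLC3A2 by 0.26 ± 0.07. GSR fell by 0.36 ± 0.08 and GCLM fell by 0.31 ± 0.07. Their limma adjusted p ran from 7.72e-08 for SLC7A11 to 0.0128 for SLC3A2. The call of SLC3A2 was lost without siNT vehicle replicate 3 or siTAZ erastin replicate 1 (0.22 and 0.21, adjusted p = 0.0514 and 0.0611). GCLC, at −0.01 ± 0.08, and GSS, at 0.16 ± 0.06 (adjusted p = 0.0637), were not called; GSS was called under a second quantile normalisation, above the 25th percentile of signal, with trend and robust variances and without siNT vehicle replicate 3 (0.16 to 0.19, adjusted p = 0.0363, 0.0384, 0.0258 and 0.0406).

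The genes whose signal followed SLC7A11 most closely over the 12 arrays were CLTCL1, a clathrin heavy chain (Pearson's r = 0.955), HERPUD1, a component of endoplasmic reticulum-associated degradation (0.926), and COQ8A, a coenzyme Q biosynthesis gene (0.925). Those closest to CTH were ASNS, asparagine synthetase (0.986), and the glycyl- and seryl-tRNA synthetase genes GARS1 (0.980) and SARS1 (0.978). CHAC1 was followed most closely by CTH itself (0.978), the transcription factor gene CEBPB (0.967) and SARS1 (0.967). These correlations describe 12 arrays in 4 groups that share their treatments, among genes above the 25th percentile of signal.

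The wider pathway was read from 5 lists of 78 other genes, 67 of them measured. With silencing 15 of 67 rose and 11 fell under erastin, 38.8% in all against 28.2% of all genes called. In vehicle 13 rose and 17 fell, 44.8% against 28.6%. With erastin 5 rose and 0 fell in siTAZ cells, 7.46% against 0.56% of all genes, and 6 rose and 0 fell in siNT cells, 8.96% against 0.802%. The median log2 fold change of the 67 was −0.02 for silencing under erastin and −0.01 in vehicle, and 0.06 and 0.05 for erastin in siTAZ and siNT cells. Of the 6 rises with erastin in siNT cells, 4 were those of transcription factor genes. For the difference between the erastin responses limma called 0 of the 67.

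Of 10 other transporters of cystine, cysteine and glutathione, silencing raised 3 and lowered 1 under erastin, and raised 3 and lowered 3 in vehicle. These were 40% and 60% of the list, where 28.2% and 28.6% of all genes were called. SLC3A1, the heavy chain of the renal cystine transporter, rose by 0.54 ± 0.05 under erastin and by 0.81 ± 0.05 in vehicle. SLC7A9, on the same list, was dim with a mean of 4.80 and was not called for silencing or for erastin. SLC1A1, which carries glutamate and cysteine, rose by 0.63 ± 0.06 and 0.80 ± 0.06. ABCC4, an efflux pump that accepts glutathione, rose by 0.36 ± 0.05 and 0.50 ± 0.05, and the glutamine transporter gene SLC1A5 fell by 0.38 ± 0.08 and 0.45 ± 0.08. With erastin SLC1A4, a neutral amino acid transporter gene, rose by 0.69 ± 0.06 in siTAZ cells and by 0.51 ± 0.06 in siNT cells, and SLC3A1 rose by 0.26 ± 0.05 in siNT cells (limma adjusted p = 4.82e-05, 0.00118 and 0.0327). In siTAZ cells SLC3A1 was at −0.00 ± 0.05 with erastin.

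Of 25 genes that use glutathione, silencing raised 5 and lowered 1 under erastin and raised 4 and lowered 3 in vehicle, and erastin changed 0 in either cell state. The shares called with silencing, 24% and 28%, were no higher than the 28.2% and 28.6% of all genes. GPX7, a peroxidase of the endoplasmic reticulum, rose by 1.01 ± 0.09 under erastin and by 0.62 ± 0.09 in vehicle with silencing. GLO1, which detoxifies methylglyoxal with glutathione, rose by 0.64 ± 0.05 and 0.63 ± 0.05, and the glutathione transferase gene GSTA4 by 0.59 ± 0.07 and 0.63 ± 0.07. Of 17 genes of the methionine cycle and sulphur oxidation, silencing raised 4 and lowered 6 under erastin and raised 3 and lowered 5 in vehicle, 58.8% and 47.1% against the same shares of all genes, and erastin changed 0. MTR, methionine synthase, rose by 0.64 ± 0.05 and 0.63 ± 0.05, while MTRR, the reductase that keeps it active, fell by 0.56 ± 0.07 and 0.54 ± 0.07. MPST, which makes hydrogen sulphide from mercaptopyruvate, fell by 0.60 ± 0.06 and 0.61 ± 0.06. Of 5 genes of the gamma-glutamyl cycle, only OPLAH rose under erastin with silencing (0.34 ± 0.12, limma adjusted p = 0.0488) and only GGCT fell in vehicle (−0.18 ± 0.05, adjusted p = 0.0227). That was 20% of the list in each medium, below the 28.2% and 28.6% of all genes. The siTAZ and siNT arrays overlapped for OPLAH under erastin.

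Of 10 measured regulators known to act on the members, silencing raised 2 and lowered 3 under erastin, where 28.2% of all genes were called, and raised 3 and lowered 5 in vehicle, where 28.6% were. Erastin raised 4 and lowered 0 in each cell state, where 0.56% of all genes were called in siTAZ and 0.802% in siNT cells. ATF4 rose with erastin by 0.42 ± 0.05 in siTAZ and by 0.27 ± 0.05 in siNT cells (limma adjusted p = 0.00262 and 0.0379). With silencing it was at −0.08 ± 0.05 under erastin, which did not pass, and fell by 0.23 ± 0.05 in vehicle. CEBPB, a partner of ATF4 at such elements, rose with erastin by 0.58 ± 0.06 and 0.64 ± 0.06, and fell with silencing by 0.66 ± 0.06 under erastin and by 0.61 ± 0.06 in vehicle. The stress-induced factor genes DDIT3 and ATF3 rose as well, DDIT3 by 0.64 ± 0.09 and 0.60 ± 0.09, and ATF3 by 0.49 ± 0.06 and 0.77 ± 0.06. In vehicle, siTAZ arrays had a higher mean of ATF3 than siNT arrays (8.72 and 8.46) and a lower mean of DDIT3 (7.92 and 8.32). Under erastin the means were 9.21 and 9.23 for ATF3 and 8.56 and 8.92 for DDIT3.

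Among regulators linked to antioxidant elements, none of NFE2L2, BACH1, MAFF and KEAP1 was called with erastin. NFE2L1 and MAFG were measured too and were not called with erastin or with silencing. NFE2L2, the gene for NRF2, rose by 0.30 ± 0.06 under erastin and by 0.48 ± 0.06 in vehicle with silencing. BACH1, a repressor at antioxidant elements, rose by 0.50 ± 0.14 and 0.84 ± 0.14, though under erastin its siTAZ and siNT arrays overlapped. MAFF, a small Maf protein that pairs with NRF2 and with BACH1, fell by 1.49 ± 0.06 and 1.41 ± 0.06. KEAP1, which marks NRF2 for degradation, was at −0.11 ± 0.05 under erastin, which did not pass, and fell by 0.19 ± 0.05 in vehicle. These are transcript signals, and the activity of the factors was not measured.

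**Figure D4:**
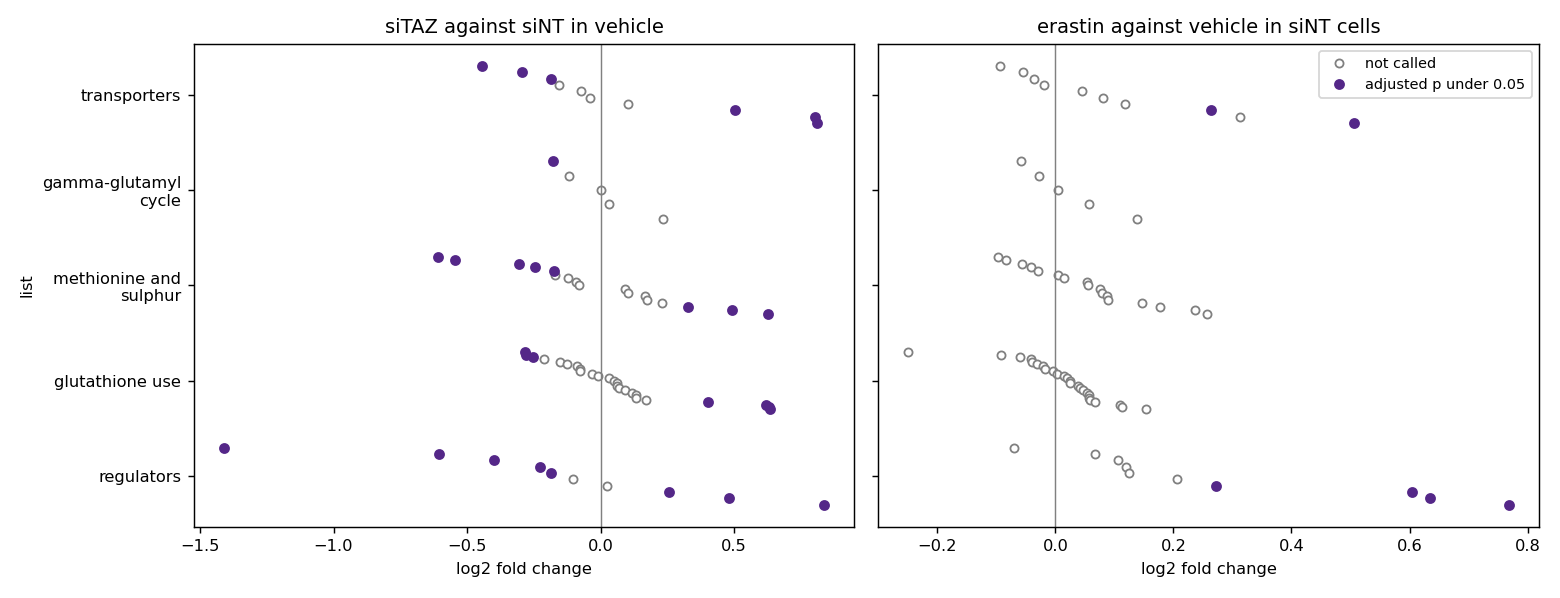
Log2 fold change (horizontal axes, with different ranges) of 67 other pathway genes in 5 lists (vertical axis) for siTAZ against siNT in vehicle (left) and for erastin against vehicle in siNT cells (right); each point is a gene, ordered within its list, and filled points have an adjusted p under 0.05. Silencing has called genes on both sides of 0 in 4 of the 5 lists, and erastin has 6 called genes, all above 0, 2 of them transporters and 4 regulators.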

How the data were processed

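Signals on the log2 scale, one per probe set, are the authors' deposited values. The submitters' processing notes name Affymetrix Expression Console and RMA, and no version is stated. The transformation against siNT in the series text is not visible in the values. Of 22277 probe sets, 62 controls, 1043 with several genes and 2108 with no gene in GEO's platform annotation were left out. Columns matched samples by accession, and titles gave the groups. All 12 arrays entered 1 limma 3.58.1 fit (R 4.3.3) with a mean per group and 6 contrasts. Its moderated variances had 8 residual and 3.90 prior degrees of freedom. Benjamini-Hochberg adjustment ran over 11963 genes, or over 19064 probe sets where that is said. The fit was tested on simulated data. With 3 against 3 arrays an exact permutation test cannot give a p under 0.1, so none was made per gene. The number of arrays limits the precision.

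The text names all 10 members, WWTR1, SLC7A9, some cell type markers and the regulators, of which NFE2L1 and MAFG are given without values. It also names genes from the up to 3 called with the largest change per list and comparison. Of these CSAD, at 0.73 for both treatments against neither, was not described. The 3 closest genes of SLC7A11, CTH and CHAC1 are named as well. Members, lists and rules were chosen with earlier results of these data known, the lists from general knowledge. Listed genes that no single-gene probe set covers were not used here. Alternatives were 2 other scalings, a filter below the 25th percentile, the mean of probe sets or each alone, and trend and robust variances. Others were only the compared groups, a replicate block, an actin covariate, and each array left out. The actin covariate is the 3′ minus 5′ difference of the actin control probe sets. Its values were 3.01 to 3.63 on siTAZ erastin and 1.49 to 2.82 on siNT erastin arrays. It therefore cannot be fully separated from silencing under erastin. Promoter coordinates are those of the RefSeq table, since no build is given for the array.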

Additional observations from a re-analysis of the deposited data

Results flagged for a closer look

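On its brightest probe set SLC7A11 was on opposite sides in the 2 media: every siTAZ array lay above every siNT array under erastin and below every siNT array in vehicle. Under erastin the groups overlapped on the second brightest (0.20 ± 0.11) and on the third (−0.21 ± 0.13). In vehicle they overlapped on the third. The mean of the probe sets gave 0.11 under erastin and was not called (limma adjusted p = 0.378). The difference between the erastin responses of siTAZ and siNT cells was 0.61 ± 0.09 on the log2 scale, with a limma adjusted p of 0.0583 over all genes.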

How the results depend on the processing

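Of 29 called results of the members, 0 changed sign over 261 alternative values and 174 values with 1 array left out, and 10 lost their call at least once; those are given with the results. Of 31 results not called, 16 changed sign at least once. With the actin covariate the interaction was 0.055 for SLC3A2, 0.17 for GCLC, 0.12 for GCLM, 0.094 for GSR and −0.0056 for GPX4. The covariate also put GCLC at 0.055 for erastin in siTAZ cells and at 0.13 for both treatments against neither, GCLM at −0.012 for erastin in siNT cells and GSR at 0.0039 for erastin in siTAZ cells. The interaction of GCLM was 0.0022 with a second quantile normalisation. With the mean of probe sets GCLC gave 0.0026 for erastin in siNT cells and 0.060 for both treatments against neither. GCLC for silencing under erastin gave −0.0090 with median centring and −0.0098 with a second quantile normalisation. With 1 array left out, GCLC ranged from −0.049 to 0.097 for silencing under erastin, from −0.11 to 0.039 for erastin in siNT cells and from −0.072 to 0.033 for both treatments against neither. Erastin ranged from −0.029 to 0.059 for GCLM and from −0.15 to 0.0045 for GSR in siTAZ cells, and in siNT cells from −0.0092 to 0.056 for GSS, from −0.12 to 0.0053 for GSR and from −0.046 to 0.10 for GPX4. Silencing in vehicle ranged from −0.022 to 0.15 for CBS, and the interaction from −0.13 to 0.018 for GCLC, from −0.081 to 0.016 for GCLM and from −0.095 to 0.073 for GSR.

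For erastin in siNT cells limma called 96 of all genes, 59 on probe sets of their own, 186 with trend and robust variances, 15 with only these groups in the fit, and 30 to 65 with 1 array left out, 30 of them without siNT erastin replicate 1. For erastin in siTAZ cells it called 67, 164 with trend and robust variances, and 30 to 41 with 1 array left out. For the interaction it called 0 genes, 3 with median centring, 3 with a second quantile normalisation, 3 above the 25th percentile, 10 with trend and robust variances and 0 to 1 with 1 array left out, the 1 being without siNT erastin replicate 3. In each of these 4 settings 1 member, SLC7A11, was called in the interaction. Of the other pathway genes 6 were called for erastin in siNT cells, 3 with only these groups in the fit and 3 to 4 with 1 array left out. The interaction needs all groups, so the fit of only the compared groups could not be run for it. The causes were not tested.

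Replicate numbers are shared between groups, but deviations of same-numbered arrays from their group means correlated at −0.42 to 0.36, over 0.1 in 4 of 15 pairs, and 3 of 12 arrays correlated best with their own number, so the numbers were not taken to pair the arrays. With the replicate block limma called 39 genes for erastin in siNT cells and 34 in siTAZ cells, and SLC3A2 in siNT cells had an adjusted p of 0.0566 at an unchanged 0.40.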
